A study of Mus musculus with 2 samples.

Results

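The amino acid transporter genes of the solute carrier families Slc1, Slc3, Slc6, Slc7, Slc36, Slc38 and Slc43 were examined in mRNA sequencing data of mouse liver. Genes were taken by symbol, 1 row per gene, with Slc1a2 and symbols holding -ps left out by the selection rule. Slc1a2 is therefore not reported here, nor part of any sum or share below. The rule gave 66 genes of the 53241 distinct symbols in each library. They comprised 62 genes of the carriers themselves and their partner chains, called transporters hereafter, and 4 genes named for lying opposite a transporter (Slc7a6os, Slc36a1os, Slc36a3os and Slc6a19os). The families also hold carriers of compounds close to amino acids, such as taurine, betaine, creatine and monoamines.

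The series has 2 liver libraries, 1 per genotype. The iFIRKO liver came from male Adipoq-CreERT2; Insr flox/flox mice, in which the adiponectin promoter drives a tamoxifen-dependent Cre in adipocytes, so that the insulin receptor gene Insr is deleted in fat cells and not in hepatocytes. The control liver, from male mice labelled WT for genotype and given as IR flox/flox in the study's methods, had the same treatment. Both groups received tamoxifen at 100 mg/kg from 7 weeks of age, once a day over 5 days, and livers were collected 3 days after the final dose. Whether a library represents a single mouse or a pool is not stated. With 1 library per genotype there was no replicate spread, so no p-value was computed, and each difference below is one between these libraries.

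Amino acid carriers sit in the plasma membrane and the lysosomal membrane, and they set how much of each amino acid a cell can take up, give out or sense. Hepatocytes take up alanine, glutamine and other amino acids through sodium-coupled carriers of the Slc38 family, and use them for glucose synthesis, urea synthesis and protein synthesis. Exchangers of the Slc7 family trade amino acids across the membrane, and several of them reach the cell surface only when bound to a heavy chain of the Slc3 family.

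Values are normalized reads on the linear scale, which summed to 42003900.4 over all genes in control liver and 41579630 in iFIRKO liver. A read pair was worth 1.987 normalized reads in control liver and 2.013 in iFIRKO liver, estimated from the commonest low value. Differences are log2 fold changes of iFIRKO over control after adding 4.18 normalized reads to each value, and the range in parentheses is the 95% exact interval of the plain ratio, which covers counting error only. Genes at 41.8 normalized reads or more in 1 or both libraries, equal to a CPM of 1 (1 of every 1000000 normalized reads), were taken as expressed. A gene was called higher or lower past 1.5-fold. Coordinates are those of GRCm38. The hepatocyte genes Alb (4167154 and 3944156 normalized reads) and Hnf4a (29516 and 28673) were abundant in both libraries, as hepatocyte markers are in liver tissue. Insr itself was at 4246 and 3692 normalized reads, a log2 fold change of −0.20 (−0.29 to −0.11), in a tissue where the Cre driver is not active in hepatocytes. Markers of other cells differed between the libraries. The summed erythroid markers were at 13473 normalized reads in control liver and 27016 in iFIRKO liver, with 6 of 6 expressed markers called higher. The summed Kupffer cell and macrophage markers were at 25353 and 16940.1, with 5 of 8 called lower and the other 3 also below 0. The 4 markers of proliferating cells summed to 1957 and 3319, with 3 called higher. In bulk tissue, fewer cells of a type and less RNA per cell cannot be told apart.

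Of the 66 genes, 30 were expressed, 15 were below the minimum without being at 0 in both libraries, and 21 were listed at 0 in both. Among the 30, Slc1a4 and Slc6a9 were called higher in the iFIRKO library. That is 2 genes (6.67%), where 4.46% of all 13400 expressed genes were called higher. Slc7a1, Slc7a5, Slc7a6, Slc7a8 and Slc43a1 were called lower, 5 genes (16.7%), where 7.28% of all expressed genes were. Slc7a6 passed the minimum through its control value alone (48.18 and 20.12 normalized reads), and with the minimum set on the mean of both libraries 4 of 29 genes were called lower. The median log2 fold change was −0.20, against 0.01 for all expressed genes. Of the 30 genes, 21 were below 0, where 6525 of all 13400 expressed genes were. The interval lay above 0 for 5 genes and below 0 for 14, where it did for 2674 and 2679 of all expressed genes.

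Most of the called genes were not abundant. Of the 13 expressed genes with a mean of 1000 or more normalized reads, Slc6a9 was called higher and none was called lower by the 1.5-fold threshold, where 2.23% of all 5072 expressed genes at that level were called higher and 2.78% lower. Of the 17 below that level, Slc1a4 was called higher (5.88%) and the 5 lower genes made up 29.4%, where 5.81% of the 8328 expressed genes below 1000 normalized reads were called higher and 10% lower. Reads of the 62 transporters summed to 141797 in control liver and 127207 in iFIRKO liver, a log2 ratio of −0.16 (−0.17 to −0.14). This sum follows its few most abundant genes.

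**Figure D1:**
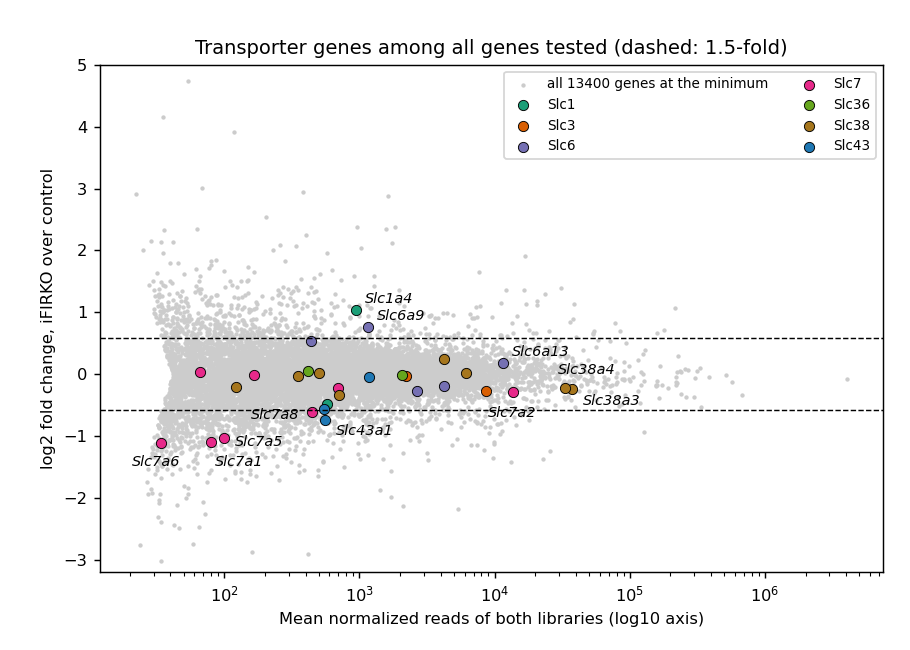
Log2 fold change of iFIRKO over control against the mean normalized reads of both libraries (log10 axis) for all 13400 expressed genes (grey) and the 30 expressed solute carrier genes, colored by family, with dashed lines at 1.5-fold. The 5 genes past the lower line lie below 1000 mean normalized reads, and Slc38a3 and Slc38a4 lie at the right with folds between the lines.

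The Slc38 family, which carries small neutral amino acids, held 62% of the transporter reads in control liver and 60.6% in iFIRKO liver. Slc38a3 (SNAT3, the system N carrier that moves glutamine, histidine and asparagine in hepatocytes; chr9:107650634-107669530) had 40400.1 normalized reads in control liver and 34142 in iFIRKO liver. Slc38a4 (SNAT4, a liver carrier of neutral amino acids such as alanine; chr15:96994820-97055956) had 35763 and 30538. Both genes had nearly the same ratio, short of 1.5-fold, with log2 fold changes of −0.24 (−0.27 to −0.21) for Slc38a3 and −0.23 (−0.26 to −0.20) for Slc38a4. Together these genes summed to 76163 and 64679.6, a log2 ratio of −0.24 (−0.26 to −0.21). Per kilobase of exon they were the highest of the 29 expressed transporters in both libraries, at 7656 (Slc38a3) and 8393 (Slc38a4) normalized reads per kb in the control library, and which of them came first changed with the transcript length used.

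The other Slc38 genes lay on both sides of 0. Slc38a2 (SNAT2, the system A carrier that cells raise when amino acids are short) had 6117 normalized reads in control liver and 6163 in iFIRKO liver, a log2 fold change of 0.01 (−0.06 to 0.08). Slc38a10 had 3899 and 4609, a log2 fold change of 0.24 (0.15 to 0.33), the only Slc38 gene whose interval lay above 0. Slc38a7 (SNAT7, which exports glutamine from lysosomes) had 789 and 623.5, a log2 fold change of −0.34 (−0.56 to −0.12). Slc38a9, the lysosomal arginine sensor that signals to the growth kinase complex mTORC1, was at 504.4 and 508.8, a log2 fold change of 0.01 (−0.24 to 0.27). The intervals of Slc38a6 (355.2 and 345.8 normalized reads) and Slc38a1 (SNAT1, 130.3 and 112.2) spanned 0. Slc38a5, the other system N carrier, was represented by 2 and 4 read pairs, Slc38a11 by 0 and 3, and Slc38a8 was listed at 0. None of the 8 expressed Slc38 genes was called at 1.5-fold, where 4.46% of all 13400 expressed genes were called higher and 7.28% lower.

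**Figure D2:**
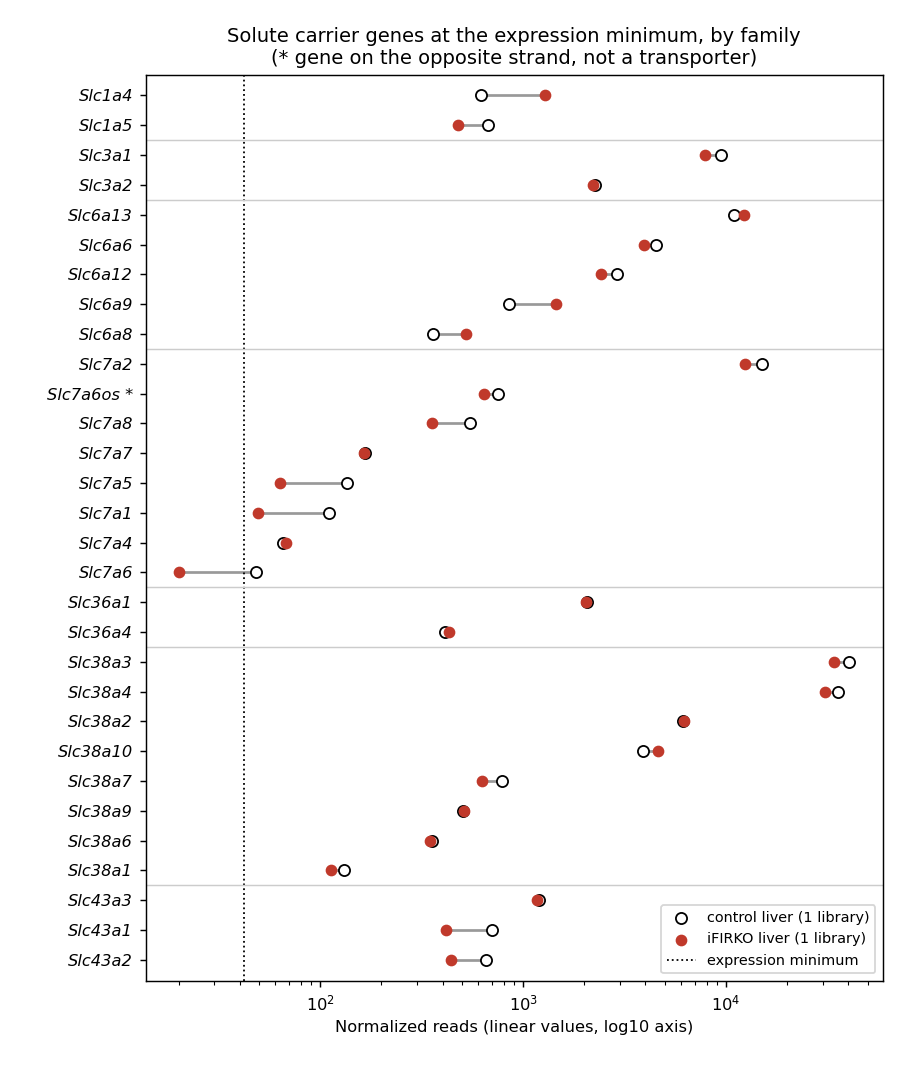
Normalized reads (linear values on a log10 axis) of the 30 expressed genes in the control library (open circles) and the iFIRKO library (filled circles), grouped by family, with the expression minimum dotted. Slc38a3 and Slc38a4 lie farthest right, from 40400.1 down to 30538 reads, and Slc7a6 crosses the minimum.

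Cationic amino acids enter cells through Slc7a1 to Slc7a3, which need no heavy chain. Slc7a2 (CAT2, whose liver form takes up arginine with low affinity) was the most abundant gene of its family, with 15084 normalized reads in control liver and 12389 in iFIRKO liver, a log2 fold change of −0.28 (−0.33 to −0.23). Slc7a1 (CAT1, the high-affinity arginine carrier of most other tissues; chr5:148327410-148399904) had 110.3 and 49.17, corresponding to 55 and 24 read pairs. It was called lower, at −1.10 (−1.93 to −0.46). Slc7a1 was far below Slc7a2 in both libraries, at 9.56 against 1651 normalized reads per kb in the control liver. Slc7a3 (CAT3) had 3 and 2 read pairs, and Slc7a4, a related gene, had 65.57 and 67.44 normalized reads, a log2 fold change of 0.04 (−0.72 to 0.76).

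The intervals of the heavy chains did not overlap. Slc3a1 (rBAT, the heavy chain known from cystine uptake in the kidney; chr17:85028376-85064236) had 9458 normalized reads in control liver and 7864 in iFIRKO liver, a log2 fold change of −0.27 (−0.33 to −0.21). Slc3a2 (4F2hc, the heavy chain of the common exchangers; chr19:8706882-8723369) had 2247 and 2197, a log2 fold change of −0.03 (−0.15 to 0.09). Slc3a1 was the more abundant heavy chain, and per kb of exon it ranked behind only Slc38a4 and Slc38a3 in the control library, and behind Slc6a13 as well when the longest transcript gave the length. Its known light chains were almost absent from the reads, as Slc7a9 had 0 and 2 read pairs and Slc7a13 was listed at 0 in both. Slc3a1 shares 601 exon bases with Prepl on the opposite strand (926 and 851 reads), and whether reads were assigned by strand is not stated.

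Of the light chains that bind Slc3a2, 4 were expressed and 3 of these were called lower, including Slc7a6, which reached the minimum in the control library alone. Of all 13400 expressed genes, 7.28% were called lower, and of those below 1000 mean normalized reads 10% were. Slc7a8 (LAT2, an exchanger of neutral amino acids; chr14:54722209-54781946) had 544.2 normalized reads in control liver and 354.5 in iFIRKO liver, a log2 fold change of −0.61 (−0.90 to −0.34). Slc7a5 (LAT1, the exchanger that brings in leucine and other large neutral amino acids; chr8:121881150-121907694) had 134.6 and 63.42, or 68 and 31 read pairs, a log2 fold change of −1.04 (−1.78 to −0.48). Slc7a6 (y+LAT2, which exchanges arginine for neutral amino acids; chr8:106168857-106198706) had 48.18 and 20.12, or 24 and 10 read pairs, a log2 fold change of −1.11 (−2.47 to −0.13). These 3 genes were lower, as Slc7a1 was, while their heavy chain Slc3a2 differed by −0.03. Slc3a2 was at 636.6 normalized reads per kb and Slc7a5 at 36.3 in the control liver, and at 622.6 and 17.1 in the iFIRKO liver. With a pseudocount of a CPM of 1, Slc7a8 (−0.56) and Slc7a6 (−0.54) were no longer past 1.5-fold. Slc7a7 (y+LAT1, which releases arginine and lysine) was at 165.8 and 163.8 normalized reads, a log2 fold change of −0.02 (−0.48 to 0.44). It shares 232 exon bases with the more abundant Oxa1l on the opposite strand (951.6 and 896.9 reads), and strand assignment of reads is not stated.

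Summed over Slc7a5, Slc7a6, Slc7a7 and Slc7a8, the light chain reads were 892.8 in control liver and 601.8 in iFIRKO liver, a log2 ratio of −0.57 (−0.78 to −0.35). This sum was led by Slc7a8. The light chain grouping was chosen with earlier results of these data known and is a description. Slc7a10 (Asc-1) and Slc7a11 (xCT, the cystine and glutamate exchanger) were listed at 0 in both libraries, as were Slc7a12 and Slc7a14, and Slc7a15 had 0 and 2 read pairs. Slc7a5 lies within the span of Gm20388 on the opposite strand, with 0 shared exon bases, and Gm20388 had 1300 reads in control liver and 1931 in iFIRKO liver. Slc7a6os, next to Slc7a6 without overlapping it, had 747 and 642 reads, a log2 fold change of −0.22 (−0.44 to 0.001).

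System L activity is also carried by Slc43a1 (LAT3) and Slc43a2 (LAT4), which let branched-chain amino acids, phenylalanine and methionine pass without exchange and need no heavy chain. Slc43a1 (chr2:84838850-84863594) had 701.2 normalized reads in control liver and 417 in iFIRKO liver and was called lower, at −0.74 (−1.01 to −0.50). Slc43a2 (chr11:75531694-75577575) had 654.5 and 442.4, a log2 fold change of −0.56 (−0.82 to −0.31), just short of the threshold. Slc43a3, known as a purine base carrier and neighbour of Slc43a1 on chromosome 2, was at 1202 and 1163, a log2 fold change of −0.05 (−0.21 to 0.12). All 4 system L genes, Slc7a5, Slc7a8, Slc43a1 and Slc43a2, had intervals below 0, and their reads summed to 2035 in control liver and 1277 in iFIRKO liver, a log2 ratio of −0.67 (−0.82 to −0.53). Over all 13400 expressed genes, 2679 had intervals below 0. The system L grouping was made with the values known and is a description.

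Summed immune and endothelial markers also differed in the direction of these lower genes. Besides the Kupffer cell and macrophage markers, the 5 B cell markers summed to 669.7 and 296.2 normalized reads, with 4 expressed. The 6 T and NK cell markers summed to 216.8 and 119.8, with only Cd4 expressed. The 5 neutrophil markers summed to 395.7 and 116.5, with 2 expressed, and the 6 endothelial markers to 9174 and 6668. Below the minimum, Cd8a (13.91 and 14.09) and Ly6g (1.81 and 3.27) were not lower. The 5 stellate markers summed to 8874 and 9565, with 4 above 0. Whether the lower values of Slc7a1, Slc7a5, Slc7a6, Slc7a8 and Slc43a1 were tied to any of these cell types was not tested. All 6 hepatocyte markers were expressed, with intervals below 0 for 5 and above 0 for 1, Ttr. Of these, Apoa1 was called lower (168382 and 87599.7 normalized reads).

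**Figure D3:**
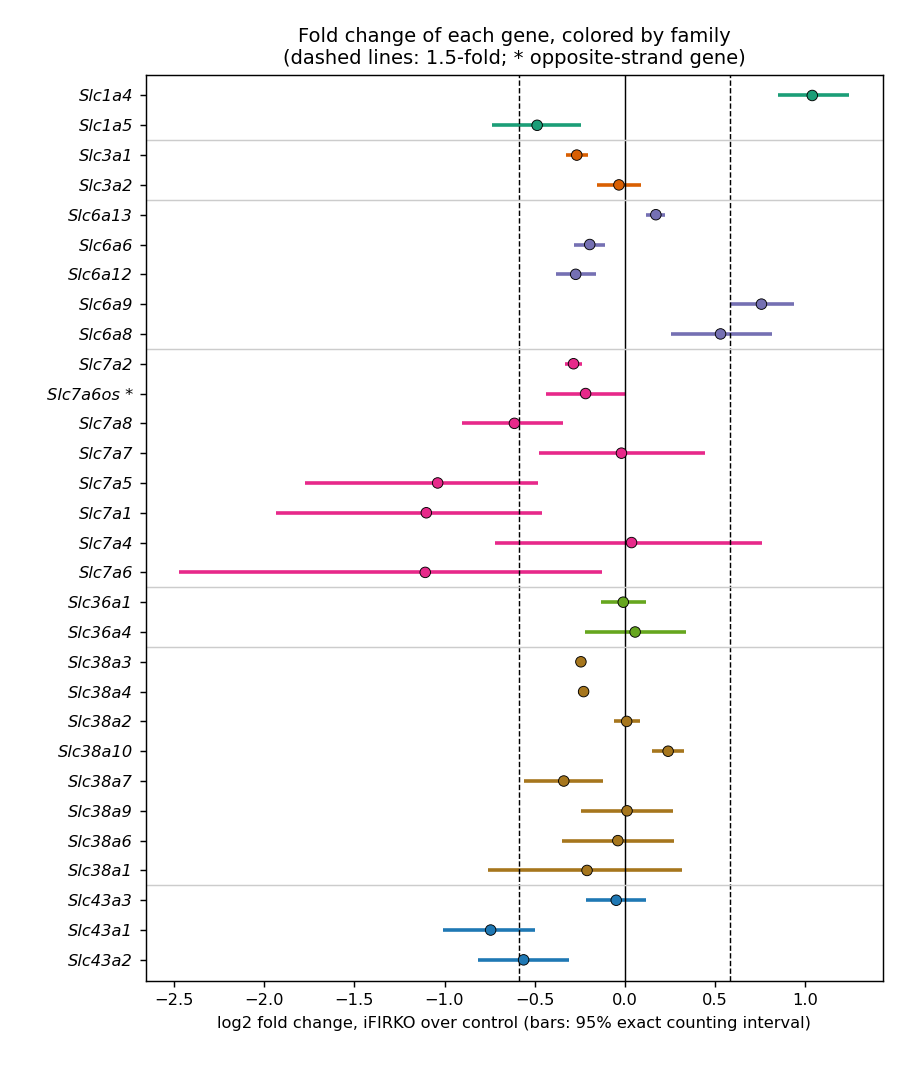
Log2 fold change of iFIRKO over control for the 30 expressed genes, with 95% exact counting intervals as bars and dashed lines at 1.5-fold. Slc1a4 and Slc6a9 lie past the upper line, and Slc7a8, Slc7a5, Slc7a1, Slc7a6 and Slc43a1 past the lower one, with the widest bar for Slc7a6 (−2.47 to −0.13).

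The Slc1 family held the gene with the largest increase among the members. Slc1a4 (ASCT1, which carries alanine, serine, cysteine and threonine; chr11:20302180-20332713) had 619.9 normalized reads in control liver and 1279.9 in iFIRKO liver, or 312 and 636 read pairs. It was called higher, at a log2 fold change of 1.04 (0.85 to 1.25), and moved from rank 16 to rank 12 of the 29 expressed transporters per kb of exon. Slc1a5 (ASCT2, the related carrier that also takes glutamine; chr7:16781340-16798274) had 670.5 and 477.6, a log2 fold change of −0.49 (−0.73 to −0.24). Per kb of exon, the related genes were near each other in the control liver, at 157.9 (Slc1a4) and 160.7 (Slc1a5) reads. In the iFIRKO liver they were apart, at 326 and 114.5. This nearness changed with the length used. With the longest transcript, Slc1a4 and Slc1a5 were at 157.9 and 238.9 reads per kb in the control liver, and at 326 and 170.2 in the iFIRKO liver. Of the 4 markers of proliferating cells, 3 were also called higher in the iFIRKO library, among them Ccnb1 (129.2 and 555.3 normalized reads) and Cdk1 (340 and 706.3). The remaining marker, Top2a, had 748.5 and 836.4, with an interval that spanned 0 (−0.05 to 0.36). The part of these markers in the result for Slc1a4 was not tested. The glutamate transporter Slc1a3 (GLAST) was just under the minimum at 41.73 and 26.17 normalized reads, Slc1a7 had 6 and 3 read pairs, Slc1a1 had 1 and 0, and Slc1a6 was listed at 0.

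Slc1a4, Slc7a11 and several other carrier genes are known targets of ATF4, the transcription factor made when amino acids run short, which binds C/EBP-ATF response elements. The core TGATGNAA was searched on both strands of the RefSeq promoter windows (GRCm38.p6, from 250 bases before to 50 bases after each start). Of the 66 genes, 48 had a promoter in the table, and 4 of these (8.33%), Slc1a4, Slc6a21, Slc7a7 and Slc7a11, held a match, where 4.51% of all 27025 genes with a promoter did. The stretches below show the matches in capitals for the higher gene Slc1a4 (chr11:20332710-20332863, minus strand), the gene Slc7a7, whose interval spanned 0 (chr14:54417938-54418094, minus strand) and Slc7a11, listed at 0 (chr3:50443614-50443763, minus strand), each written 5′ to 3′ on the strand of the gene.
Slc1a4: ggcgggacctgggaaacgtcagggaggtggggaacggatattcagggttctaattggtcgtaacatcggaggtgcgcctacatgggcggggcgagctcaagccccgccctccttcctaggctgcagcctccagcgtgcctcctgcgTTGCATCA
Slc7a7: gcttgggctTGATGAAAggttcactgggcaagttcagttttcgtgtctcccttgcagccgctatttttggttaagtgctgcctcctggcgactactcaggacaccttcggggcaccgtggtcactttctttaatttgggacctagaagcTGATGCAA
Slc7a11: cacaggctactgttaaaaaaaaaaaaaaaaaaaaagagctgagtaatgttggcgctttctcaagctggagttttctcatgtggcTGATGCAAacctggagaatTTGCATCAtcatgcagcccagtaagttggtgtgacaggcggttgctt
The match in Slc1a4 was on the opposite strand and began 4 bases before the start site. Slc7a11 held 2 matches, at 66 and 47 bases before the start, and the printed window of Slc7a7 held 2, at 141 bases and 1 base before it. Slc7a7 has 5 windows in the table, from 5 annotated starts, and 2 of them held a match. Promoters with these letters belonged to genes that were called higher, not called and listed at 0. Neither a match nor its absence shows whether a factor binds there.

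The Slc6 family carries GABA, glycine, taurine, betaine and creatine with sodium and chloride, and 5 of its 21 transporters were expressed. Slc6a13 (GAT2, which carries taurine, betaine and GABA in hepatocytes; chr6:121300227-121337733) had 10905 normalized reads in control liver and 12294 in iFIRKO liver, a log2 fold change of 0.17 (0.12 to 0.23). Slc6a12 (BGT1, the betaine carrier), which starts 5342 bases beyond the end of Slc6a13 on the same strand, had 2911 and 2411, a log2 fold change of −0.27 (−0.38 to −0.16). Slc6a6 (TauT, the taurine carrier) had 4528 and 3957, a log2 fold change of −0.19 (−0.28 to −0.11). The neighbouring genes Slc6a13 and Slc6a12 had intervals on opposite sides of 0, and Slc6a13 grew from 7.69% to 9.66% of all transporter reads.

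Slc6a9 (GlyT1, the glycine carrier that also feeds heme synthesis in red cell precursors; chr4:117834506-117875198) had 852.4 normalized reads in control liver and 1445.6 in iFIRKO liver. It was called higher, at a log2 fold change of 0.76 (0.59 to 0.94). Erythroid markers moved the same way, including Alas2, the erythroid enzyme that opens heme synthesis (640 and 1921 normalized reads), and Hbb-bs (4415 and 8679), and their part in the result for Slc6a9 was not tested. Slc6a9 shares 1429 exon bases with Ccdc24 on the opposite strand, but Ccdc24 had only 0 and 1.9 normalized reads.

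Slc6a8 (the creatine carrier; chrX:73673150-73682502) had 359.5 and 521.6 normalized reads, a log2 fold change of 0.53 (0.26 to 0.82), the highest of those short of the 1.5-fold threshold. Of the others, Slc6a16 had 8 and 15 read pairs and Slc6a4, the serotonin transporter, 6 and 4. Slc6a7, Slc6a14, Slc6a19, Slc6a20b and Slc6a21 had at most 3 read pairs in either library, and Slc6a2, Slc6a3, Slc6a5, Slc6a11, Slc6a15, Slc6a17, Slc6a18 and Slc6a20a were listed at 0. The neutral amino acid carriers Slc6a19 and Slc6a20a, known from kidney and gut, had almost no reads in either liver.

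The proton-coupled Slc36 carriers had intervals that spanned 0. Slc36a1 (PAT1, which exports small amino acids from lysosomes; chr11:55204350-55236330) had 2057.5 normalized reads in control liver and 2046 in iFIRKO liver, a log2 fold change of −0.01 (−0.13 to 0.12). Slc36a4 (PAT4, a carrier of proline and tryptophan; chr9:15709738-15743361) had 411.3 and 428.3, a log2 fold change of 0.06 (−0.22 to 0.34). Slc36a2 and Slc36a3, neighbours of Slc36a1 on chromosome 11, were listed at 0 in both libraries, as were Slc36a1os, Slc36a3os and Slc6a19os. Of the lysosomal carriers Slc36a1, Slc38a9 and Slc38a7, Slc38a7 was the one with an interval below 0.

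By family, summed reads of Slc38 were 87962 in control liver and 77056 in iFIRKO liver, a log2 ratio of −0.19 (−0.21 to −0.17). The sums of Slc7 (16159 and 13118) and Slc3 (11704 and 10062) had log2 ratios of −0.30 (−0.35 to −0.25) and −0.22 (−0.27 to −0.16), led by Slc7a2 and Slc3a1. Slc43 summed to 2558 and 2022, at −0.34 (−0.46 to −0.22). On the other side, Slc1, with Slc1a2 left out, summed to 1345 and 1789.7, at 0.41 (0.27 to 0.56), through Slc1a4. Slc6 summed to 19600.3 and 20685, at 0.08 (0.04 to 0.12), led by Slc6a13. The Slc36 sums were 2469 and 2475, and their interval spanned 0 (−0.11 to 0.12). A family sum hid members that differed, since Slc1a5 was below and Slc1a4 above their control values within the Slc1 family.

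**Figure D4:**
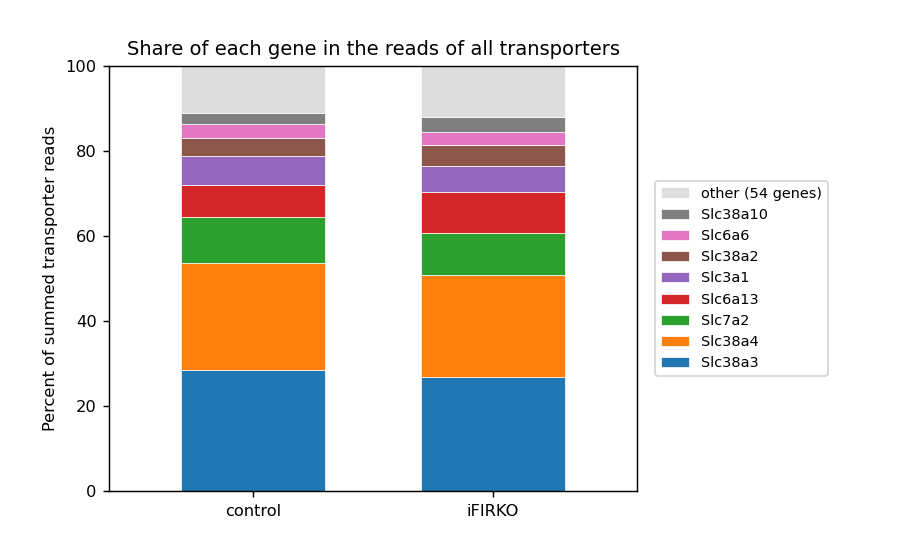
Share of each gene in the summed reads of the 62 transporters, in percent, for the control and the iFIRKO library, with the 8 most abundant genes colored and all others in grey. Slc38a3 and Slc38a4 hold 28.5% and 25.2% in the control library, and 26.8% and 24% in the iFIRKO library.

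The transporters were set beside 3 lists of genes for amino acid sensing and use, none of which contains a member. The list of ATF4 target and amino acid response genes held 34 expressed genes, of which 3 were called higher (8.82%, against 4.46% of all expressed genes) and 2 lower (5.88%, against 7.28%), with a median log2 fold change of 0.07. Asns (asparagine synthetase) was called higher at 59.82 and 124.8 normalized reads, Psat1 (serine synthesis) at 48.54 and 94.62, and the transcription factor Atf3 at 99.14 and 167.9. Chac1, which degrades glutathione, was called lower at 187.3 and 81.97, and Trib3, a pseudokinase that restrains the response, at 177.8 and 78.52. All 5 are low-level genes, and they were named after their values were seen. Among genes at a CPM of 5 or more, the highest folds were for Vldlr (0.46), Gpt2, an alanine aminotransferase (0.45), and Lars, a leucyl-tRNA synthetase (0.25), and the lowest for Ppp1r15a (−0.32), Cebpb (−0.26) and Cth (−0.23). Atf4 itself was at 3598 and 3285 normalized reads. Called genes of the response lay in both directions. Among the transporters, Slc1a4 was called higher and Slc7a5 lower. Both are also known ATF4 targets, picked here with their values known. The target Slc7a11 was listed at 0 in both libraries, and Slc38a2, which cells raise when amino acids are short, differed by 0.01. A part of ATF4 in these results was not tested.

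Of the 41 expressed genes of amino acid sensing by mTORC1, the growth kinase complex at the lysosome, none was called higher at 1.5-fold and Rragd was called lower (72.03 and 46.31 normalized reads, interval −1.45 to 0.17), with a median log2 fold change of 0.06. The lower share of 2.44% stands against 7.28% of all expressed genes. The highest folds at a CPM of 5 or more were for the complex subunit Mlst8 (0.58), the small GTPase Rraga (0.29) and Mtor (0.29), and the lowest for the leucine sensor family gene Sesn1 (−0.50), the inhibitor Tsc1 (−0.48) and Fnip1 (−0.36). Of 62 genes of hepatic amino acid catabolism, all expressed, Csad (taurine synthesis from cysteine) was called higher at 14744 and 23495 normalized reads and Agxt (glyoxylate and serine metabolism) lower at 9331 and 5479, each 1.61% of the list, against 4.46% and 7.28% of all expressed genes. Mat1a (0.38) and Pcca (0.30) followed Csad, and Afmid (−0.58) followed Agxt, in log2 fold change, and the list median was 0.00. The transporter median of −0.19 was below those of the 3 lists, and this comparison is a description of 2 libraries.

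**Figure D5:**
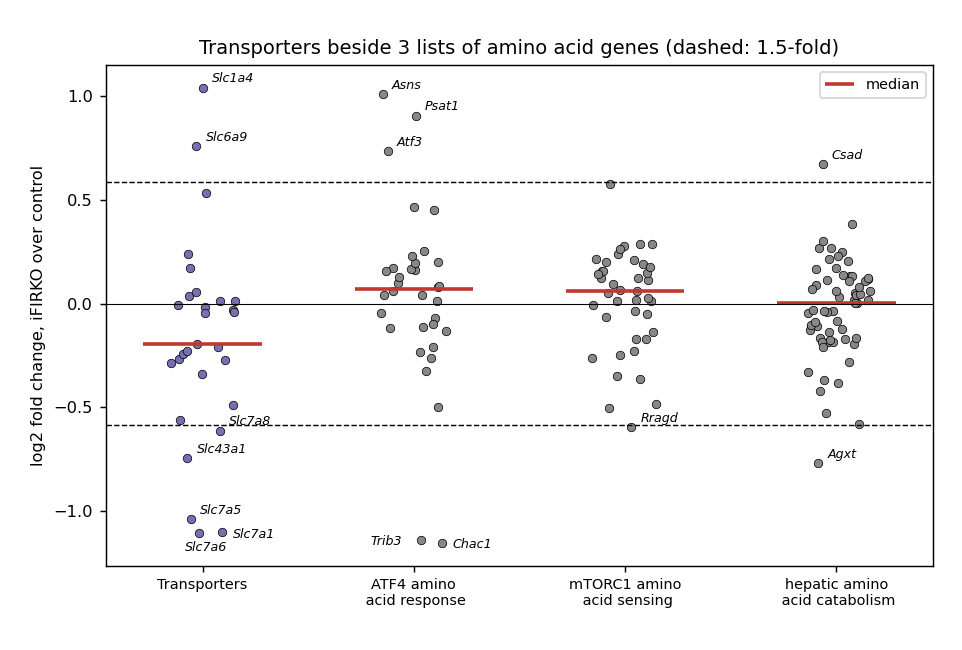
Log2 fold change of iFIRKO over control for the 29 expressed transporters and the expressed genes of 3 lists (each point 1 gene, spread sideways at random), with the median of each list in red and dashed lines at 1.5-fold. The transporter median lies at −0.19, and the medians of the lists at 0.07, 0.06 and 0.00.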

How the data were processed

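Total RNA of liver was converted to stranded poly(A) mRNA libraries with a TruSeq kit and sequenced on an Illumina NovaSeq instrument. The values deposited by the authors are normalized read counts on a log2 scale, given by gene symbol in 53342 rows, of which 62.2% (control) and 62.1% (iFIRKO) were listed at 0. Build mm10 (GRCm38) is named in the submitters' processing notes. The aligner, the counter and the normalization are not given in the sources used here, and whether reads were assigned by strand is not stated.

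Values were returned to the linear scale. Read pairs were estimated from the commonest low value, and 44.7% and 45.1% of values under 40 normalized reads were whole pairs within 0.01, so depths are estimates. A pseudocount of a CPM of 0.1, a minimum CPM of 1 in 1 or both libraries (a CPM being 41.8 normalized reads, the mean of both library sums over 1000000) and a fold above 1.5, the threshold of the study's methods, were used. No fold change is printed where either library had 3 or fewer read pairs of a gene. Intervals are exact Clopper-Pearson intervals at 95%. PCR reads without molecular identifiers are not independent molecules, so these cover counting error only. Positions and exon lengths came from GENCODE annotation of GRCm38 and promoters from RefSeq. All 66 genes were found in the annotation. The promoter end opened an annotated transcript of the gene for 41 of the 48 genes with a promoter.

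Every expressed gene was named, with values and intervals for those past the threshold, for the 2 most abundant of each family and for the heavy chains, and for each list the 3 highest and 3 lowest folds at a CPM of 5 or more. A few genes under this rule are not reported here. Other names were chosen after their values were seen. The genes, lists and tests were chosen with earlier results of these data known. The comparison was tested on simulated libraries. Computation used scipy 1.17.1, pandas 2.3.3 and numpy 2.4.6 under Python 3.11.15, and figures matplotlib 3.10.9. Alternatives were another pseudocount or none, other expression minimums, 2 other scalings, a fold above 2, summed duplicate symbols and the longest transcript as length.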

Additional observations from a re-analysis of the deposited data

How the results depend on the processing

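With 1 library per genotype, no replicate could be left out. No paired analysis was possible because there was 1 library for each genotype. The log2 fold changes of the 30 expressed genes stayed within their counting intervals under another pseudocount, the plain ratio, 2 other scalings and summed duplicate symbols, and only Slc38a2, at 0.01, crossed 0. The median of −0.20 ranged from −0.22 to −0.12 over all alternatives. The counts depended on the thresholds, since most called genes have few reads. Of the members, 2 were called higher and 5 lower. With no expression minimum these became 8 and 8 of 45 genes, a count that includes genes at 3 or fewer read pairs through the pseudocount, and at a fold above 2 they became 1 and 3. A pseudocount of a CPM of 1 gave 3 lower genes and a minimum CPM of 5 gave 2, which leaves Slc7a8 and Slc43a1. Both scalings gave 6, because Slc1a3 then passed the minimum. Leaving out the opposite-strand genes, an alternative chosen after seeing the data, changed neither count.

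Over all genes, 597 were called higher and 976 lower. A pseudocount of a CPM of 1 gave 371 and 576, no minimum gave 1960 and 2620, a minimum CPM of 5 gave 288 and 440, and a fold above 2 gave 209 and 267. In the ATF4 list, the 3 higher and 2 lower genes became 0 and 0 at a minimum CPM of 5, and the higher genes became 1 at a fold above 2. In the mTORC1 list, the 1 lower gene became 0 with a pseudocount of a CPM of 1, a minimum CPM of 5 or a fold above 2, and 2 with no minimum. In the catabolism list, the 1 higher and 1 lower gene became 0 and 0 at a fold above 2, and 2 genes were lower under both other scalings. Under the other settings these counts stayed within 1.5 times those given.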
